A study of Homo sapiens with 30 samples.

Results

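A set of 10 genes of non-essential amino acid synthesis were followed through RNA-Seq of human cells treated with Omomyc, a MYC-derived miniprotein that competes with MYC for MAX and for DNA. They were chosen by name for their place in asparagine, serine, glycine, one-carbon, proline and cysteine synthesis, with earlier results of these data known. All 10 were found among the 57992 genes of the deposited table. The genes are ASNS, PHGDH, PSAT1, PSPH, SHMT1, SHMT2, MTHFD2, ALDH18A1, PYCR1 and CTH. In HCT116 cells most of them fell with Omomyc, ASNS and PHGDH the farthest, whereas in Ramos cells the changes were small at 6 h and mostly not called at 24 h. The study's authors had already reported a fall of ASNS in HCT116 cells treated with Omomyc.

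Cells make asparagine, serine, glycine, proline and cysteine from intermediates of glycolysis and the citric acid cycle or from other amino acids. Serine and glycine also feed the folate cycle, which carries one-carbon units for nucleotide synthesis. When amino acids run short, the kinase GCN2 phosphorylates the initiation factor eIF2, translation of the transcription factor ATF4 rises, and ATF4 activates many of these genes through C/EBP-ATF response elements. MYC is also known to activate serine, one-carbon and proline synthesis genes in tumor cells. The RNA values hold no measurement of ATF4 protein or of its binding, so the name "ATF4-driven" is background for these genes and not a result.

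RNA was sequenced from 30 libraries in 10 groups of 3. HCT116, a colon carcinoma line labelled as having stabilized MYC, was untreated or received 2 or 10 μM Omomyc for 6 or 24 h. Ramos, a Burkitt's lymphoma line labelled as having a MYC translocation, was untreated or received 500 nM or 2.5 μM Omomyc for 6 or 24 h. Each line had 1 untreated group without a time point, which every treated group of that line shares as its control. The labels give the lower HCT116 dose as 2 μM, whereas the study's methods give 2.5 μM, and the dose of the labels is used here. For libraries titled 24 h, a time tag of the labels gives a time shorter than 6 h. The times of the titles are used here, and the study's methods also give 6 or 24 h for HCT116 cells. According to the methods, HCT116 cells received Omomyc with ProteoJuice, a protein transfection reagent applied in Opti-MEM, with serum-containing medium added for longer incubations. The wording of the methods can be read as giving the reagent to HCT116 cells without Omomyc as well, but does not say so of the untreated libraries, and if these did not receive it, Omomyc and its delivery cannot be told apart. How Omomyc was delivered to Ramos cells is not stated. Each line is a single cell line, and nothing says whether replicates were separate cultures, so the p-values measure only the spread between these libraries.

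Values are RPKM (read number divided by gene length and by library size), which the authors deposited without read numbers, so the depth of each library is unknown. The summed RPKM ranged over the libraries from 593633 to 1051041, the highest sum being that of replicate 3 of 10 μM at 6 h in HCT116 cells. It was 593633 to 660769 in untreated HCT116 libraries, 659047 to 1051041 in treated ones and 783788 to 973736 in Ramos libraries. A library had 13483 to 15340 genes at 0.5 RPKM or more. All 6 epithelial markers were expressed in HCT116 cells (summed RPKM 1473 to 2345, against at most 1.94 in Ramos) and all 6 B cell markers in Ramos cells (1498 to 1672, against at most 3.08 in HCT116). T cell and monocyte markers summed to at most 1.02 in any library. Of the fibroblast markers, COL1A1 reached a mean of 4.67 in HCT116 cells. RNA encoded by the mitochondrial genome took 0.401% to 0.520% of the summed RPKM in untreated HCT116 libraries, 0.818% to 3.12% in treated ones and 0.191% to 0.273% in Ramos libraries, and its part in the results was not tested.

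To place the genes beside the elements that ATF4 and MYC/MAX are known to recognize, the RefSeq promoters (GRCh38.p14, 250 bases before to 50 bases after the start) were searched on both strands for the C/EBP-ATF core TGATGNAA and the E box CACGTG. The table held 8 promoters for 7 of the 10 genes, 2 of them for ASNS. PSPH, SHMT2 and PYCR1 were not in it. The C/EBP-ATF core was present in 1 of the 7 genes, ASNS, and in 3.62% of all 35116 promoters. The E box was present in 1 of the 7, ALDH18A1, and in 7.26% of all promoters. Both windows are shown because they hold the only matches in the 8 promoters, and a link between the matches and the changes with Omomyc was not tested. The capitals mark the match, at chr7:97872459-97872486 (minus strand) for ASNS and at chr10:95656831-95656858 (minus strand) for ALDH18A1, read 5′ to 3′ along the gene.
ASNS: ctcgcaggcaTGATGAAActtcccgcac
ALDH18A1: ggctggcccgcCACGTGgagcgctggct
Counted from the start that the RefSeq promoter entry uses, the first base of the match lay at −68 in 1 of the 2 ASNS promoters and at −136 in that of ALDH18A1. A match shows only that these letters are present, and a window without one says nothing of either factor.

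The first question was which of these genes changed with Omomyc in HCT116 cells. For each comparison log2(RPKM + 0.5) was fitted with limma across every gene whose mean RPKM reached 0.5, and a gene was called where its p, adjusted by the Benjamini-Hochberg method, was under 0.05. All 10 genes passed the filter in every comparison. Of these, 9 were lower at 2 μM and 6 h, where 31.8% of the 14550 genes tested were lower, and 9 were lower at 10 μM and 6 h, where 21.2% of 14785 were. At 24 h, 6 were lower at 2 μM (10.8% of 14886 genes) and 8 at 10 μM (15.7% of 14827). None was called higher by limma in any of these 4 comparisons, and at an unadjusted p under 0.05 the number higher was also 0. Of all genes called, 32.7% and 29.4% were higher at 2 and 10 μM after 6 h, and 60.6% and 55.3% after 24 h. The median difference of the 10 genes was −0.51, −0.71, −0.33 and −0.34 on the log2 scale in the same order, against −0.12, −0.11, 0.04 and 0.02 over all genes tested. In 7 of the 10 genes (ASNS, PHGDH, PSAT1, SHMT1, SHMT2, MTHFD2 and PYCR1) all 12 treated libraries lay below all 3 untreated ones, which 11.1% of 14826 genes did. Bulk RNA cannot tell less RNA per cell from fewer cells with the RNA.

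ASNS, which makes asparagine from aspartate and glutamine (ENSG00000070669, GRCh38 chr7:97852118-97872542, minus strand), had 118, 123 and 141 RPKM in the untreated HCT116 libraries. It had 28.3, 25.2 and 39.6 RPKM after 6 h at 2 μM and 27.4, 27.9 and 22.8 RPKM after 6 h at 10 μM. At 24 h it had 46.1, 50.3 and 42.2 RPKM at 2 μM and 42.7, 43.5 and 41.3 RPKM at 10 μM. No treated library reached even the lower limit of the untreated ones, and the 24 h libraries were all above the 6 h libraries. On the log2(RPKM + 0.5) scale, which understates the change of low genes, the difference of ASNS from untreated cells was −2.04 (SE 0.146, adjusted p = 2.17e-05) and −2.27 (SE 0.121, adjusted p = 0.000145) at 6 h. At 24 h it was −1.45 (SE 0.0800, adjusted p = 4.32e-05) and −1.57 (SE 0.0670, adjusted p = 1.59e-06). The largest of these is a 4.82-fold fall. In the exact permutation test (two-sided), 3 libraries against 3 cannot give a p below 0.1, and every comparison without overlap gave that value.

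The serine branch runs from a glycolytic intermediate through PHGDH, PSAT1 and PSPH. PHGDH, which catalyzes its first step (ENSG00000092621, chr1:119648411-119744226, plus strand), had 72.9, 73.4 and 80.6 RPKM in untreated HCT116 libraries. After 6 h it had 24.2, 22.6 and 28.8 RPKM at 2 μM and 25.8, 23.1 and 15.4 RPKM at 10 μM. After 24 h it had 35.8, 40.9 and 34.5 RPKM at 2 μM and 32.0, 35.0 and 34.5 RPKM at 10 μM. As with ASNS, every treated library lay below every untreated one, and every 6 h library below every 24 h library. The log2 differences were −1.57 (SE 0.0918), −1.83 (SE 0.184), −1.02 (SE 0.0700) and −1.15 (SE 0.0584), with adjusted p from 4.70e-06 to 0.00100.

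PSAT1, the transaminase of the serine branch (ENSG00000135069, chr9:78297143-78330093, plus strand), had 75.7, 73.8 and 84.6 RPKM without Omomyc. It had 38.2, 33.1 and 47.4 RPKM at 2 μM and 32.9, 32.4 and 28.6 RPKM at 10 μM after 6 h, and 36.2, 39.5 and 38.1 RPKM at 2 μM and 39.2, 37.0 and 39.4 RPKM at 10 μM after 24 h. Every treated library was again below the untreated ones, with log2 differences of −0.98 (SE 0.118), −1.31 (SE 0.105), −1.03 (SE 0.0610) and −1.01 (SE 0.0608). PSPH, the phosphatase that releases serine in the last step (ENSG00000146733, chr7:56011051-56051604, minus strand), moved much less. It had 22.4, 20.5 and 25.0 RPKM untreated and between 14.6 and 20.1 RPKM at 6 h, which was lower at both doses (−0.35, SE 0.117, adjusted p = 0.0316, and −0.43, SE 0.126, adjusted p = 0.0375). At 24 h PSPH had 17.2 to 21.3 RPKM, overlapped the untreated libraries and was not called (−0.18, adjusted p = 0.132, and −0.25, adjusted p = 0.0508).

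Serine is split to glycine by SHMT1 in the cytosol and by SHMT2 in mitochondria, and MTHFD2 passes the one-carbon unit on in mitochondria. SHMT2 (ENSG00000182199, chr12:57229327-57234935, plus strand) had 98.1, 96.3 and 104 RPKM untreated, 65.2 to 76.2 RPKM at 2 μM and 6 h, and 67.5, 69.8 and 46.6 RPKM at 10 μM and 6 h. At 24 h it had 78.5 to 89.1 RPKM over both doses, still below every untreated library. Its log2 differences were −0.47, −0.72, −0.25 and −0.24, all called. SHMT1 (ENSG00000176974, chr17:18327860-18363563, minus strand) had 28.2, 30.9 and 28.3 RPKM untreated, 14.3 to 21.7 RPKM at 6 h and 23.0 to 27.8 RPKM at 24 h. It was lower at 6 h (−0.54 and −0.70) and at 10 μM and 24 h (−0.27, adjusted p = 0.00984), but at 2 μM and 24 h the difference of −0.14 was not called (adjusted p = 0.105). MTHFD2 (ENSG00000065911, chr2:74198562-74217565, plus strand), with the highest RPKM of the 10 genes in all 10 groups, went from 230, 229 and 259 RPKM to between 147 and 182 RPKM in the 12 treated libraries. Its fall at 2 μM was larger at 24 h (−0.62, SE 0.0559) than at 6 h (−0.41, SE 0.0680), the reverse of ASNS, PHGDH and SHMT1, and at 10 μM the differences were −0.65 and −0.54.

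The pair of proline enzymes went different ways. PYCR1, which reduces pyrroline-5-carboxylate to proline in mitochondria (ENSG00000183010, chr17:81932384-81942412, minus strand), had 171, 173 and 186 RPKM untreated and 88.3 to 141 RPKM in the treated libraries. Its log2 differences were −0.47, −0.72, −0.42 and −0.41, all called. ALDH18A1, which makes the precursor of that compound from glutamate (ENSG00000059573, chr10:95605929-95656706, minus strand), had 51.0, 51.4 and 47.1 RPKM untreated and 47.2 to 51.5 RPKM at 24 h. Its differences of −0.14, −0.19, −0.04 and 0.01 were not called, and at 10 μM and 24 h the 95% interval ran from −0.11 to 0.13. CTH, which releases cysteine from cystathionine (ENSG00000116761, chr1:70411218-70439851, plus strand), was the lowest of the 10 genes in all 10 groups. It had 4.75, 4.72 and 5.17 RPKM untreated and 2.36 to 3.60 RPKM at 6 h, log2 differences of −0.68 and −0.57. At 24 h CTH had 3.69 to 4.89 RPKM and was called at 10 μM (−0.28, adjusted p = 0.0383) but not at 2 μM (−0.15, adjusted p = 0.279). The call at 10 μM was lost with no filter, with the replicate block, in the fit of all 5 groups of the line (adjusted p = 0.181) and without any 1 library except replicate 2 of the treated cells.

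**Figure D1:**
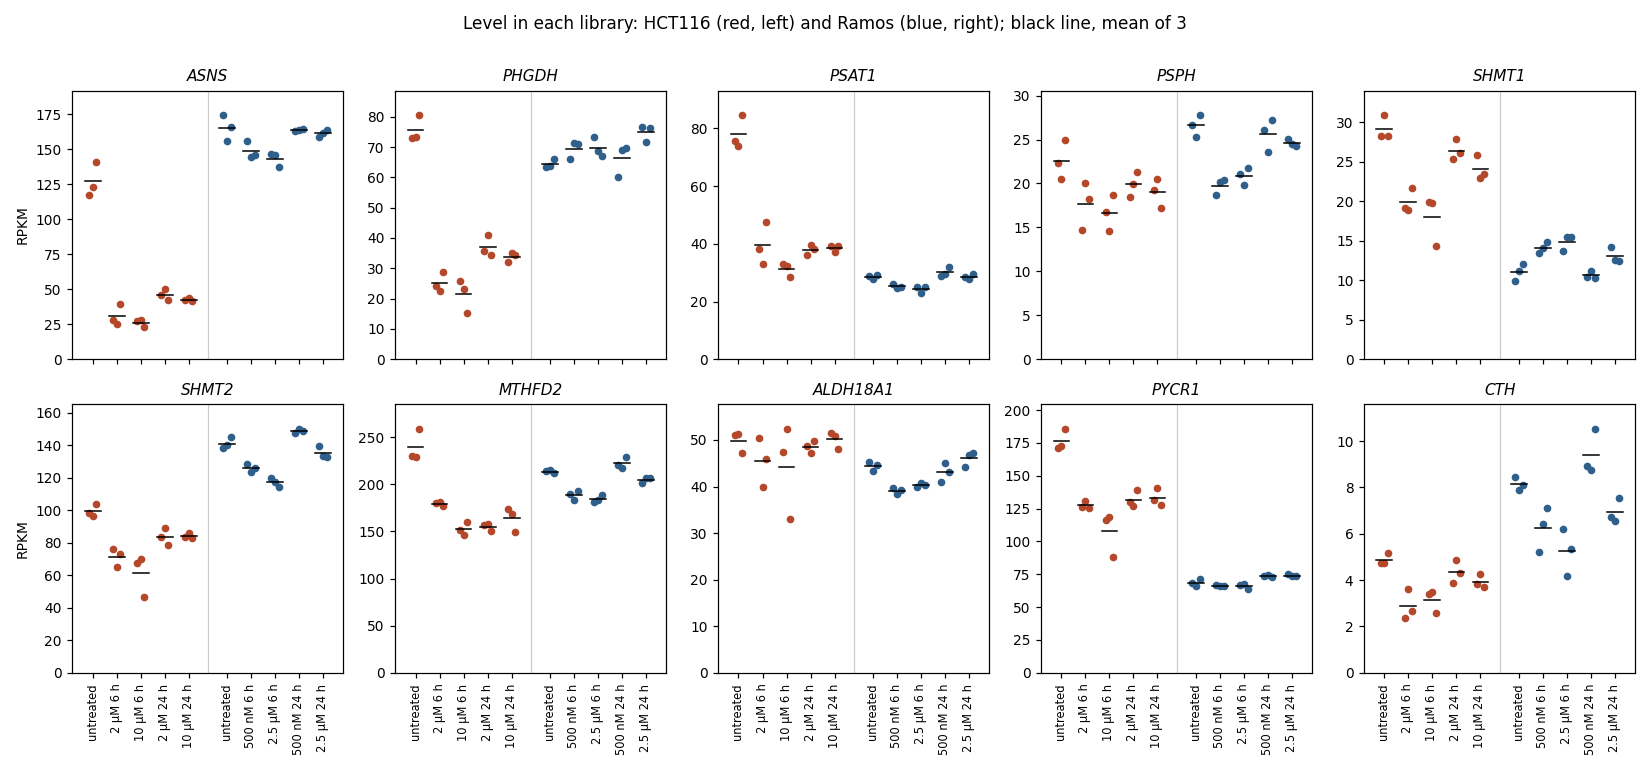
RPKM of the 10 genes in each of the 30 libraries (points) with the mean of each group (black line), HCT116 in red on the left and Ramos in blue on the right of each panel; each vertical axis starts at 0. In HCT116 cells ASNS has 118 to 141 RPKM untreated and 22.8 to 50.3 RPKM in the 12 treated libraries, while in Ramos cells it stays between 138 and 175 RPKM.

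ASNS, PHGDH, PSAT1, MTHFD2 and PYCR1 were called lower in all 4 HCT116 comparisons and in each of the alternative fits run, 64 fits in all for each gene. PSPH lost its 6 h calls under median-ratio scaling (adjusted p = 0.196 at 2 μM and 0.170 at 10 μM), quantile normalization and no filter. It also lost them without replicate 1 or 3 of either group at 2 μM, and without any 1 library except replicate 3 of the treated cells at 10 μM. Replicate 3 of 10 μM at 6 h had the lowest value of its group for all but PSPH and MTHFD2, as well as the highest summed RPKM of all libraries. Without it the same 9 genes were lower at that dose and time, whereas without replicate 2 of the untreated cells 5 were (ASNS, PHGDH, PSAT1, MTHFD2 and PYCR1). CTH and SHMT2 lost their calls there without any 1 untreated library, CTH also with no filter. At 24 h SHMT2 lost its call in the fit of all 5 groups of the line at both doses, and at 2 μM also with no filter (adjusted p = 0.0513) and without replicate 3 of the untreated cells. SHMT1 lost its 10 μM call at 24 h in the same 5-group fit (adjusted p = 0.110). The scaling between libraries moved the median of all genes at 2 μM and 6 h from −0.12 to 0.01 with median ratios and to −0.42 with equal sums of RPKM. Relative to that median the 10 genes stood at −0.39 as deposited, and at −0.38 and −0.42 under these scalings. At 10 μM and 24 h they stood at −0.37 as deposited and −0.37 and −0.38. The share of all called genes that were higher was 32.7% at 2 μM and 6 h as deposited, 53.8% with median ratios and 6.76% with equal sums, and at 10 μM and 24 h it was 55.3%, 48.3% and 20.4%.

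**Figure D2:**
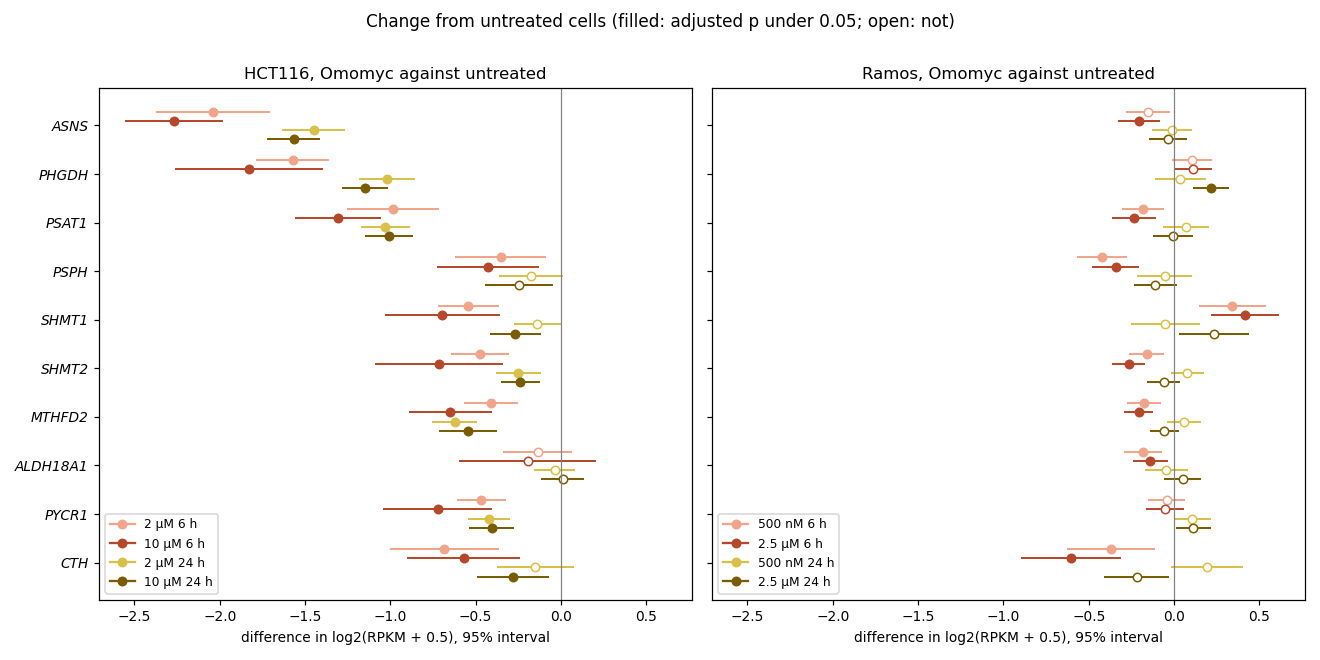
Difference in log2(RPKM + 0.5) from untreated cells with its 95% interval for each gene at each dose and time, HCT116 on the left and Ramos on the right; filled points have an adjusted p under 0.05. In HCT116 cells ASNS lies between −2.27 and −1.45 and ALDH18A1 between −0.19 and 0.01, whereas no difference in Ramos cells is below −0.60.

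The 24 h groups were then set against the 6 h groups of the same dose. There was no untreated group for each time, so time with Omomyc and time in culture cannot be told apart. At 2 μM in HCT116 cells the median difference of the 10 genes was 0.20, against 0.16 over all genes tested. Of the 10 genes, 4 were higher at 24 h (ASNS by 0.59, PHGDH by 0.55, CTH by 0.53 and SHMT1 by 0.40), where 30.9% of all genes tested were higher, and 1 was lower (MTHFD2, −0.21), where 9.85% were lower. MTHFD2 lost this call with equal sums of RPKM (−0.03, adjusted p = 0.792) and with quantile normalization (−0.13, adjusted p = 0.115), and without any 1 of the 24 h libraries. CTH lost its call with no filter, with median-ratio scaling (0.36, adjusted p = 0.0994) and with quantile normalization (0.25, adjusted p = 0.252), and without replicate 1 or 3 of 6 h or replicate 2 or 3 of 24 h. ASNS lost it with no filter (adjusted p = 0.0689) and with median-ratio scaling (0.39, adjusted p = 0.0530), and SHMT1 with median-ratio scaling (0.21, adjusted p = 0.0560). At 10 μM only ASNS was called, being higher by 0.70 (SE 0.116, adjusted p = 0.0142), where 5.8% of all genes were higher. The median difference at this dose was 0.31 for the 10 genes and 0.15 over all genes tested. Without replicate 3 of 10 μM at 6 h, 5 of the genes were higher at 24 h, namely ASNS, PHGDH (0.46), PSAT1 (0.23), SHMT1 (0.27) and SHMT2 (0.29), and without any 1 of the 10 μM libraries at 24 h the number was 0. At 24 h ASNS was still 2.96-fold below untreated cells at 10 μM and 2.73-fold at 2 μM.

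The 10 μM groups were also compared with the 2 μM groups. At 6 h limma called 0 of the 10 genes, with 0% of all genes called in either direction, and at 24 h it called 0, with 0.18% of all genes called. At an unadjusted p under 0.05 the number was also 0 at both times. For ASNS the difference between the doses was −0.23 at 6 h (95% interval −0.64 to 0.18) and −0.12 at 24 h (−0.27 to 0.04). For PSAT1 it was −0.32 at 6 h (−0.67 to 0.02). The 10 μM libraries of PSAT1, MTHFD2 and PYCR1 lay below the 2 μM libraries at 6 h without overlap, though none was called, and 18.2% of 14601 genes did not overlap in either direction.

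In Ramos cells the same genes moved little and not all one way. At 500 nM and 6 h, 6 genes were lower, where 9.73% of all genes tested were lower, and 1 was higher, where 13.8% were. At 2.5 μM and 6 h, 7 were lower (10.7% of all genes) and 1 was higher (17.3% of all genes). PSPH, SHMT2, MTHFD2, PSAT1, ALDH18A1 and CTH were lower at both doses and ASNS at 2.5 μM, while SHMT1 was higher at both. The median difference of the 10 genes was −0.17 and −0.21, against 0.02 and 0.03 over all genes.

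CTH fell the most in Ramos cells at 2.5 μM, from 8.44, 7.89 and 8.10 RPKM to 6.22, 4.20 and 5.33 RPKM, a log2 difference of −0.60 (SE 0.127, adjusted p = 0.00863). PSPH went from 26.7, 25.3 and 27.8 RPKM to 18.7, 20.2 and 20.4 RPKM at 500 nM (−0.42, SE 0.0620, adjusted p = 0.00179) and to 21.0, 19.9 and 21.7 RPKM at 2.5 μM (−0.34, SE 0.0583, adjusted p = 0.00330). SHMT1 rose from 9.92, 11.2 and 12.03 RPKM to 13.5, 14.1 and 14.8 RPKM at 500 nM (0.34, SE 0.0837, adjusted p = 0.0184) and to 13.8, 15.5 and 15.4 RPKM at 2.5 μM (0.42, SE 0.0853, adjusted p = 0.00776). In each of these the treated libraries did not overlap the untreated ones, and SHMT1 and SHMT2, the cytosolic and mitochondrial forms of one enzyme activity, moved in opposite directions (SHMT2 by −0.16 and −0.27). ASNS had 175, 156 and 166 RPKM untreated, 156, 145 and 146 RPKM at 500 nM and 147, 146 and 138 RPKM at 2.5 μM, a difference of −0.15 (adjusted p = 0.0722) and −0.21 (adjusted p = 0.0178).

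PHGDH did not fall in Ramos cells. It had 63.5, 63.7 and 66.2 RPKM untreated and 66.0 to 73.4 RPKM at 6 h, and its differences of 0.11 and 0.11 were not called (adjusted p = 0.153 and 0.110). PYCR1, with 63.5 to 67.3 RPKM at 6 h against 66.2 to 71.0 RPKM untreated, was not called either. Rescaling the libraries to equal sums of RPKM left PSPH lower and SHMT1 higher at 500 nM. At 2.5 μM it left CTH lower and SHMT1 and PHGDH higher. The calls of the other small falls in Ramos cells therefore depended on this scaling. Relative to the median of all genes tested, the median of the whole set at 500 nM and 6 h was −0.19 as deposited. It was −0.19 with median ratios, −0.22 with quantile normalization and −0.18 with equal sums. At 2.5 μM and 6 h these values were −0.24, −0.24, −0.28 and −0.23. Leaving out replicate 2 of 500 nM at 6 h left 1 call at that dose, leaving out replicate 3 of 500 nM or replicate 1 of the untreated cells left 3, and leaving out replicate 3 of the untreated cells left 4. The rise of SHMT1 at 500 nM was among the calls lost in the first 3 of these. CTH at 500 nM lost its call without any 1 library except replicate 3 of 500 nM, and ALDH18A1 at 2.5 μM without any 1 library except replicate 2 of the untreated cells. At 2.5 μM ASNS lost its call without replicate 1 of the untreated or replicate 3 of the treated cells, and PSAT1 without replicate 2 of the treated cells.

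By 24 h hardly any difference from untreated Ramos cells was called. At 500 nM limma called 0 of the 10 genes, and 0.0146% of all genes in either direction, and 1 gene (PYCR1, 0.11) had an unadjusted p under 0.05. At 2.5 μM only PHGDH was called, higher by 0.22 (SE 0.0439, adjusted p = 0.0307), where 3.3% of all genes were higher. It had 76.8, 71.7 and 76.4 RPKM against 63.5 to 66.2 RPKM untreated. This call was lost under median-ratio scaling, quantile normalization, no filter and the fit with the replicate number, and without any 1 library except replicate 3 of the untreated cells. At 2.5 μM 4 genes had an unadjusted p under 0.05, with PHGDH, PYCR1 and SHMT1 higher and CTH lower. ASNS stood at −0.01 (95% interval −0.12 to 0.10) at 500 nM and at −0.03 (−0.14 to 0.07) at 2.5 μM.

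Compared with 6 h, 7 genes were higher at 24 h in Ramos cells at 500 nM, where 11.9% of all genes were higher, and SHMT1 was lower (−0.39), where 13.5% were. At 2.5 μM 7 were higher, where 12.7% of all genes were. ASNS, PSAT1, PSPH, SHMT2, MTHFD2 and PYCR1 were higher at both doses, CTH at 500 nM (0.56) and ALDH18A1 at 2.5 μM (0.19). With equal sums of RPKM the number called at 500 nM was 3. At that dose ASNS lost its call without replicate 2 or 3 of 6 h or any 1 of the 24 h libraries, and PYCR1 without replicate 2 or 3 of 6 h or replicate 2 of 24 h. Between the doses limma called 0 genes at 6 h, with 0.429% of all genes called in either direction, and 1 (SHMT2) had an unadjusted p under 0.05. At 24 h CTH was lower at 2.5 μM than at 500 nM, with 6.72, 6.54 and 7.53 RPKM against 8.91, 8.77 and 10.5 RPKM (−0.41, SE 0.0925, adjusted p = 0.0407), where 1.86% of all genes were lower. The CTH call was lost without any 1 of the 6 libraries, with no filter, with equal sums of RPKM and in the fit of all 5 groups of the line.

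The untreated lines already differed in these genes. Of the 10, 6 were higher in HCT116 than in Ramos cells, where 45.7% of 15647 genes were higher, and 4 were lower, where 39% were, so that a difference between the lines was the rule for all genes. PSAT1 (78.0 ± 5.77 against 28.6 ± 0.660 RPKM, mean ± SD, n = 3), PYCR1 (177 ± 8.07 against 68.4 ± 2.47) and SHMT1 (29.2 ± 1.53 against 11.1 ± 1.06) were 2.69-, 2.57- and 2.57-fold higher in HCT116 cells. CTH (4.88 ± 0.253 against 8.14 ± 0.283), SHMT2 (99.5 ± 3.98 against 141 ± 3.68), ASNS (127 ± 12.1 against 165 ± 9.31) and PSPH (22.6 ± 2.23 against 26.6 ± 1.23) were lower. With equal sums of RPKM, which moved the median of all genes from 0.09 to 0.65, ASNS (0.19, adjusted p = 0.121), SHMT2 (0.07, adjusted p = 0.468) and PSPH (0.33, adjusted p = 0.0301) turned to the other side, and CTH was no longer called (−0.15, adjusted p = 0.199). PHGDH (0.23), MTHFD2 (0.16) and ALDH18A1 (0.16) were higher in HCT116 cells by less, and these and the first 3 genes stayed higher under each scaling. PSPH lost its call with median-ratio scaling (adjusted p = 0.0622) and without replicate 1 or 3 of Ramos or replicate 1 or 2 of HCT116 cells, MTHFD2 without replicate 1 or 3 of Ramos cells, and ALDH18A1 without replicate 1 or 2 of HCT116 cells.

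Over the 10 genes, the RPKM of HCT116 cells summed to 903 ± 50.1 untreated, 560 ± 19.6 at 2 μM and 482 ± 45.5 at 10 μM after 6 h, and 591 ± 11.3 and 594 ± 23.0 after 24 h. In Ramos cells the sum was 772 ± 13.6 untreated, 704 ± 9.31 and 687 ± 7.93 at 500 nM and 2.5 μM after 6 h, and 794 ± 14.2 and 770 ± 5.02 after 24 h. The order of the groups was not the same for all genes. In HCT116 cells ASNS, PHGDH, SHMT1 and SHMT2 each had 3 levels whose libraries did not overlap, with untreated cells highest, both 24 h groups next and both 6 h groups lowest, an order that 4.2% of 14826 genes had. For PSPH and ALDH18A1 every group overlapped its neighbour in the order of their own means.

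Whether the change with Omomyc differed between the lines was tested directly with the doses nearest to each other, 2 μM in HCT116 and 2.5 μM in Ramos cells. The difference tested is the change in HCT116 cells minus the change in Ramos cells, so a negative value is a deeper fall in HCT116 cells. At 6 h it was negative and called for 6 of the 10 genes, where 28.4% of 15562 genes were lower in this sense, and at 24 h for the same 6 genes, where 9.51% of 15714 were. These were ASNS (−1.83 at 6 h and −1.42 at 24 h), PHGDH (−1.69 and −1.24), PSAT1 (−0.75 and −1.03), SHMT1 (−0.96 and −0.37), PYCR1 (−0.42 and −0.53) and MTHFD2 (−0.20 and −0.57). For PSPH, ALDH18A1 and CTH the difference lay between −0.09 and 0.07 at both times and was not called, with 95% intervals for PSPH of −0.33 to 0.30 at 6 h and −0.29 to 0.15 at 24 h. SHMT2 stood between, with −0.21 (adjusted p = 0.0615) and −0.19 (adjusted p = 0.0835). The ASNS, PHGDH, PSAT1 and PYCR1 differences were called in each alternative at both times, as were SHMT1 at 6 h and MTHFD2 at 24 h. MTHFD2 at 6 h lost its call under median-ratio scaling (−0.06, adjusted p = 0.584), with no filter (adjusted p = 0.0561) and with the replicate block (adjusted p = 0.0862), and without any 1 Ramos library or replicate 3 of untreated or treated HCT116 cells. SHMT1 at 24 h lost it under quantile normalization (−0.33, adjusted p = 0.0587), with no filter (adjusted p = 0.0739) and with the replicate block (adjusted p = 0.0963), without any 1 untreated HCT116 library, without replicate 1 or 3 of treated HCT116 cells and without replicate 1 or 2 of either Ramos group. The lines also differ in the doses and possibly in the delivery reagent, which cannot be told apart from the line.

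**Figure D3:**
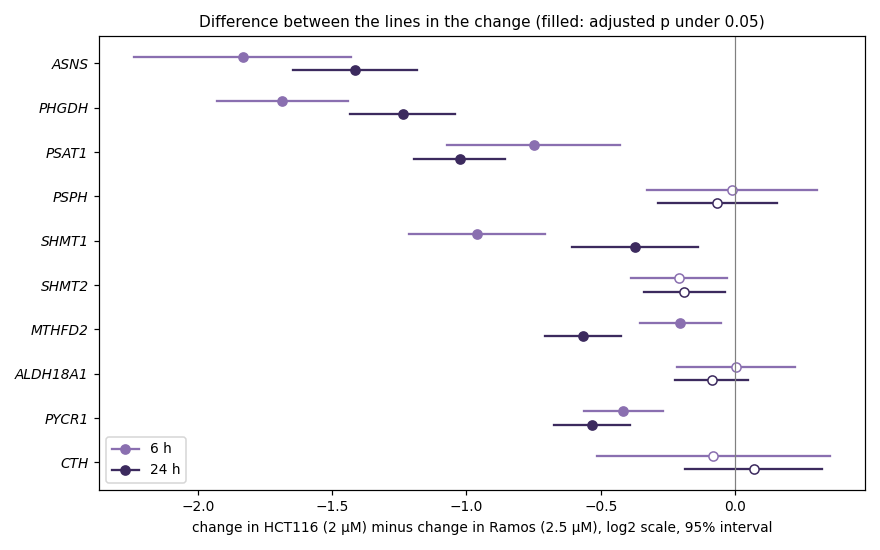
Change with Omomyc in HCT116 cells (2 μM) minus change in Ramos cells (2.5 μM) for the 10 genes at 6 h and 24 h, on the log2(RPKM + 0.5) scale with 95% intervals; filled points have an adjusted p under 0.05. ASNS and PHGDH lie farthest below 0, from −1.83 to −1.24, and PSPH, ALDH18A1 and CTH lie between −0.09 and 0.07.

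ATF4 itself, and genes around these pathways, were examined as gene lists and are described by counts only. ATF4 RNA in HCT116 cells went from 287, 308 and 333 RPKM to 192, 231 and 221 RPKM at 2 μM and 171, 187 and 188 RPKM at 10 μM after 6 h. It had 204 to 223 RPKM and 192 to 210 RPKM at these doses after 24 h, and was lower in all 4 comparisons, with log2 differences of −0.53, −0.76, −0.55 and −0.61. In Ramos cells ATF4 was lower at 6 h at both doses (−0.26 and −0.28, with 205 to 217 RPKM against 251 to 265) and not at 24 h (0.02 and 0.03), although with equal sums of RPKM it was higher at 2.5 μM and 24 h (0.24, adjusted p = 0.0226). In Ramos cells at 6 h, 6 of the 10 genes were lower at 500 nM and 7 at 2.5 μM. SHMT1 was higher there, and PHGDH and PYCR1 were not called. With equal sums of RPKM only PSPH stayed lower at 500 nM and only CTH at 2.5 μM. For ATF4 the alternative fits were run only at the highest dose and 24 h of each line, so its 6 h calls were not checked in this way. The groups of a line share 1 untreated control, and whether ATF4 and the 10 genes moved together was not tested.

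Of the 25 genes for ATF4, its regulators and its targets outside amino acid synthesis, 23 were tested at 10 μM and 24 h in HCT116 cells, where 15 were lower and 2 higher, with a median of −0.46. Of all 14827 genes tested there, 15.7% were lower and 19.5% higher, with a median of 0.02. The largest falls were those of CHAC1 (2.54 ± 0.293 against 13.8 ± 2.37 RPKM, −2.23), which degrades glutathione, and TRIB3 (17.7 ± 0.699 against 31.5 ± 2.08 RPKM, −0.81), a pseudokinase induced by ATF4. The 2 that were higher were the amino acid transporter subunit SLC3A2 (0.23) and the transcription factor ATF5 (0.36, adjusted p = 0.0475), and both calls were lost with equal sums of RPKM (0.04, adjusted p = 0.765, and 0.19, adjusted p = 0.279) and in the fit of all 5 groups of the line. The ATF5 call was also lost with no filter, with median-ratio scaling (adjusted p = 0.0578), with quantile normalization (adjusted p = 0.0605) and without any 1 library except replicate 2 of the treated cells. At 6 h in HCT116 cells 13 of the 23 genes tested were lower and 3 higher at each dose. The differences ran from −2.06 to 3.17 at 2 μM and from −3.33 to 2.56 at 10 μM. Of all genes tested 31.8% and 21.2% were lower there. Of the 16 genes of this list called at each dose, 3 were higher, beside 32.7% and 29.4% of all called genes. In Ramos cells at 2.5 μM and 24 h, 24 were tested and 2 were lower, the amino acid transporter SLC38A2 (−0.54) and ATF5 (−0.31), where 1.31% of all 13607 genes were lower and 3.3% higher. The number higher was 0 by limma's adjusted p and 3 at an unadjusted p under 0.05. SLC38A2 and ATF5 lost these calls with no filter and without any 1 of the treated libraries, and ATF5 also with equal sums of RPKM, with the replicate block and without replicate 1 or 2 of the untreated cells.

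Of the 30 neighbouring enzymes of amino acid and folate metabolism, 27 were tested at 10 μM and 24 h in HCT116 cells, where 13 were lower and 0 higher by limma (1 at an unadjusted p under 0.05), with a median of −0.23, beside the same 15.7% lower and 19.5% higher over all genes. GPT2, the mitochondrial alanine aminotransferase, had 11.6 ± 0.244 against 20.4 ± 1.39 RPKM (−0.79). In Ramos cells at 2.5 μM and 24 h, 21 were tested and 3 were higher, where 3.3% of all genes were, with GCSH, a subunit of the glycine cleavage system, higher by 0.51 (adjusted p = 0.0385) and TYMS, thymidylate synthase, by 0.49 (adjusted p = 0.00754). GCSH lost its call with no filter, median-ratio scaling, quantile normalization and the replicate block, and without any 1 treated library or replicate 1 of the untreated cells. TYMS lost it with no filter (adjusted p = 0.0511). The number lower was 0 by limma, also at an unadjusted p under 0.05.

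**Figure D4:**
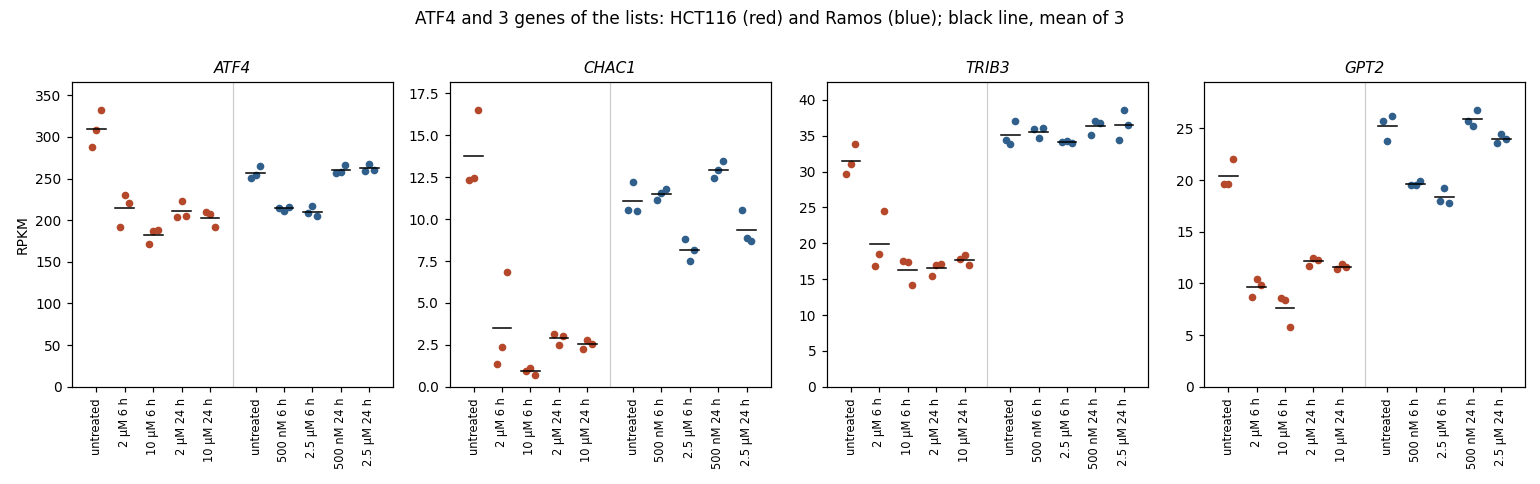
RPKM of ATF4, CHAC1, TRIB3 and GPT2 in each library (points) with group means (black lines), HCT116 in red and Ramos in blue, axes from 0. In HCT116 cells ATF4 has 287 to 333 RPKM untreated and 171 to 231 RPKM treated, while in Ramos cells at 24 h it has 256 to 267 RPKM against 251 to 265 RPKM untreated.

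Genes whose profile was nearest to each of the 10 were found among 11969 genes by the mean absolute difference of the log2 changes over the 8 treated groups, which share their controls within a line. PCK2, mitochondrial phosphoenolpyruvate carboxykinase, was nearest to ASNS (0.20) and to PHGDH (0.15), with changes of −1.64, −1.82, −1.24 and −1.25 in HCT116 cells and −0.17 to 0.06 in Ramos cells. The next nearest to ASNS were SAT1 (0.20), CYP24A1 (0.25), ID1 (0.27) and SESN3 (0.30). A gene entered this search with a mean of at least 2 RPKM over all 30 libraries, which 1 line alone can supply. In Ramos cells CYP24A1 changed by 0 at 6 h and by 0.02 and 0.08 at 24 h, so its nearness rests on HCT116 cells. ID1 was higher by 0.19 to 0.28 in the treated Ramos groups, where the differences of ASNS were below 0. NARS, cytosolic asparaginyl-tRNA synthetase, was nearest to SHMT2 (0.05). RHOBTB3 was nearest to PSAT1, TBL1XR1 to PSPH, FBXL4 to SHMT1, ZMAT3 to MTHFD2, MTERF1 to ALDH18A1, RAB13 to PYCR1 and HLA-DRA to CTH. Among the 10 themselves the nearest pair was SHMT2 and PYCR1 (0.11), followed by SHMT2 and MTHFD2 (0.11). For SHMT2, PYCR1 and MTHFD2 the nearest gene outside the set was closer, at 0.05 each. The mean absolute change of the 10 genes themselves ran from 0.099 for ALDH18A1 to 0.97 for ASNS, and a gene that changed little lies near other such genes.

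Several of the genes have copies or neighbours that could share reads. The 17 annotated pseudogenes of ASNS, PSAT1, PSPH, SHMT1 and MTHFD2 had group means of at most 0.390 RPKM. SMCR8, on the other strand, overlaps SHMT1 by 196 bases and had group means of 2.17 to 7.32 RPKM. AC079781.5, which spans ASNS on the same strand, has no row in the deposited table, so reads it may share with ASNS could not be checked.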

How the data were processed

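Total RNA of HCT116 and Ramos cells was isolated with the RNeasy kit, depleted of ribosomal RNA and sequenced after stranded TruSeq library preparation. The authors deposited RPKM values per gene for all 30 libraries in 1 table. The submitters' processing notes name RSEM without a version; the aligner, genome build and annotation are not given in the sources used here. RPKM corrects for gene length and library size, so depth is unknown and no counting interval can be given. Values were fractional and whole reads were not recovered.

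Groups came from the sample titles. For libraries titled 24 h, a time tag of the labels gives a time shorter than 6 h. The titles were followed, so every 24 h result rests on them. If the tag were right, the comparisons of 24 h against 6 h would run the other way in time. Symbols and positions came from GENCODE release 29 (GRCh38) through the Ensembl identifiers, of which 57388 of 57992 matched, and promoters from RefSeq (GRCh38.p14).

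The log2(RPKM + 0.5) values were fitted with limma 3.58.1 in R 4.3.3, for genes whose RPKM averaged 0.5 or more in the libraries fitted, with an intensity trend and Benjamini-Hochberg adjustment over all genes tested. Each comparison of 3 against 3 libraries was fitted alone, 17 comparisons in all, and 2 further fits of 12 libraries tested the difference between the lines. The fits were tested on simulated data. Figures were drawn with matplotlib 3.10.9 in Python 3.11.15. Alternatives were pseudocounts of 0.1 and 1, scaling by median ratios, by quantiles or to equal sums of RPKM, dropping the filter or raising it to 2 RPKM, blocking on the replicate number, leaving out 1 library at a time, and fitting all 5 groups of a line together.

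The 10 genes and both other gene lists were chosen with earlier results of these data known, and counts over them are descriptions. From each other list the text names ATF4 and the 2 largest falls and 2 largest rises called at the highest dose and latest time in each line. A gene this rule names is not reported here. No other columns of per-sample values were present. Within groups, libraries correlated at 0.988 to 0.997 and none were identical.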

Additional observations from a re-analysis of the deposited data

Results flagged for a closer look

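The change with Omomyc in HCT116 cells at 2 μM minus that in Ramos cells at 2.5 μM differed from 0 in limma's interaction test for 6 of the 10 genes at each time. At 6 h the difference was −1.83 for ASNS, −1.69 for PHGDH, −0.96 for SHMT1, −0.75 for PSAT1, −0.42 for PYCR1 and −0.20 for MTHFD2 on the log2(RPKM + 0.5) scale. At 24 h it was −1.42 for ASNS, −1.24 for PHGDH, −1.03 for PSAT1, −0.57 for MTHFD2, −0.53 for PYCR1 and −0.37 for SHMT1. Each is a test of the difference itself, with adjusted p from 2.41e-06 to 0.0357. SHMT1 moved in opposite directions at 6 h, lower in all 3 treated HCT116 libraries than in any untreated one and higher in all 3 treated Ramos libraries than in any untreated one. Line, dose and delivery cannot be told apart in these differences.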

How the results depend on the processing

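Over all alternatives, 251 counts of called genes stayed within 1.5 times the reported count and 43 did not. With equal sums of RPKM the number of the 10 genes called became 2 at 500 nM and 6 h and 3 at 2.5 μM and 6 h in Ramos cells, 4 at 2.5 μM and 24 h, 3 for 24 h against 6 h at 500 nM, 2 between the doses at 24 h, 2 in HCT116 cells for 24 h against 6 h at 10 μM and 10 for the difference between the lines at 6 h. That scaling turned untreated HCT116 against Ramos cells to 0.19 for ASNS, 0.33 for PSPH and 0.073 for SHMT2, and the difference between the lines at 6 h to −0.47 for ALDH18A1. With all 5 groups of a line in 1 fit the number was 5 at 10 μM and 24 h in HCT116 cells, 5 for 24 h against 6 h at 10 μM and 3 between the Ramos doses at 24 h. PHGDH at 2.5 μM and 24 h in Ramos cells was lost, leaving 0, with no filter, median-ratio scaling, quantile normalization and the replicate block. For 24 h against 6 h at 2 μM the number was 3 with no filter and 2 with median ratios. Between the Ramos doses at 24 h it was 0 with no filter, 2 at a mean RPKM of at least 2, 3 with median ratios and 3 with quantile normalization. No shared effect of the replicate number was seen. Deviations of same-numbered libraries correlated at −0.30 to 0.18, and in 0 of 16 comparisons was every pair over 0.1. This cannot show whether the libraries were paired by design, which the titles do not say. The replicate block left 0 genes for 24 h against 6 h at 10 μM. Leaving out 1 library at a time gave 5 to 9 at 10 μM and 6 h in HCT116 cells, 1 to 7 at 500 nM and 6 h in Ramos cells, 0 to 1 at 2.5 μM and 24 h, 3 to 5 for 24 h against 6 h at 2 μM (3 without replicate 2 or 3 of 24 h), 0 to 5 at 10 μM, and 0 between the Ramos doses at 24 h. Apart from the equal sums, whose construction removes any difference in total RPKM, the cause was not tested. Share of called genes higher, as deposited and with equal sums, was 60.6% and 23.0% at 2 μM and 24 h in HCT116 cells and 71.6% and 97.4% at 2.5 μM and 24 h in Ramos cells. Depth is unknown and limits small differences in CTH first, at the lowest RPKM.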
